A study of Mus musculus with 10 samples.

Results

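The genes described here make sterols and fatty acids or control their synthesis. They are 34 mouse genes chosen by symbol, by a rule that holds no measured value but with earlier results of these data known. They are 19 enzymes of the mevalonate and cholesterol pathway, 5 genes of SREBP control, 8 enzymes of fatty acid synthesis and desaturation, and 2 sterol transport genes. Of these, 33 stand in at least 1 of the 3 count tables the authors deposited, out of 13976 genes in any table. A total of 29 stand in all 3 tables, Mvd is not analysed here, and the SMB56 THZ1 table also lacks Idi1, Lss, Sc5d and Scd1. Every one of these genes that a table holds passed the filter on low counts.

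Cholesterol is built from acetyl-CoA through mevalonate, isoprenyl phosphates, squalene and lanosterol, and fatty acids from the same acetyl-CoA through malonyl-CoA. The SREBP transcription factors, products of Srebf1 and Srebf2, switch on both pathways. They are held in the endoplasmic reticulum by the Insig proteins together with the escort protein Scap when sterols are plentiful, and released when sterols run short, and Insig1 is itself an SREBP target. In the developing cerebellum, sterols are needed for Hedgehog signalling, since SMO binds cholesterol and the signalling protein carries it.

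Messenger RNA was measured by RNA sequencing in SMB56, a neurosphere line from medulloblastoma that arose spontaneously in Ptch+/- mice, and in SMB56-shSufu, such cells stably expressing a hairpin that targets Sufu. The 3 SMB56 groups were given DMSO, THZ1 at 0.1 µM, or GDC-0449 at 1 µM. The pair of SMB56-shSufu groups were given DMSO or THZ1 at 0.1 µM. Treatment lasted 8 hours at passage 10 to 15, and each of the 5 groups has 2 libraries. THZ1 covalently inhibits the transcription kinase CDK7, and GDC-0449 (vismodegib) inhibits SMO. The study describes its cells as responsive or resistant to SMO inhibitors. Both lines carry the Ptch+/- genotype, 1 line stands for each, and the labels do not say whether replicates came from different cultures, so p-values reflect the spread among these libraries alone, which may be technical.

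Counts of a library summed over the genes of its table were 10614268 to 14986389 in the SMB56 tables and 30100041 to 33254885 in the SMB56-shSufu table. They are not full library totals. The first SMB56 DMSO library had 12738482 in the THZ1 table and 14486776 in the GDC-0449 table. Shares of counts given below use the same sums. Line, table and sequencing depth cannot be told apart. The labels were checked on the Hedgehog genes. Gli1 fell 13.5-fold with GDC-0449 in SMB56 (edgeR adjusted p = 8.8e-29) and Ptch1 fell 2.48-fold (5.1e-22). Under DMSO, Sufu in SMB56-shSufu was 2.9-fold below its SMB56 level (edgeR adjusted p = 5.2e-06). In CPM (counts scaled to each library's total times its TMM factor) from the fit over both lines, Sufu went from 66.3 and 62 under DMSO to 135 and 143 under THZ1 in SMB56, and from 21.7 and 22.5 to 104 and 97.3 in SMB56-shSufu. With THZ1 the knockdown line thus stood above the SMB56 DMSO libraries and below the SMB56 THZ1 libraries, and the rise with THZ1 was larger in SMB56-shSufu by 1.07 ± 0.13 on the log2 scale (edgeR adjusted p = 0.0019). Of 9 markers of the granule neuron lineage and Hedgehog medulloblastoma, 7 stand in the SMB56 THZ1 table. None of the 6 microglial and 3 endothelial markers stands in any table, and of 4 fibroblast markers only Pdgfra does, in the SMB56-shSufu table. Of the 7 oligodendrocyte markers at most 3 do, at a summed 17.8 to 30.9 CPM, and of the 6 astrocyte markers at most 3 do, at 156 to 797 CPM. The tables do not hold every gene. The lowest mean count in the GDC-0449 table is 79.5, and the SMB56 THZ1 table is selected on the response. A marker missing from them thus does not show that its cells are absent. In bulk RNA, fewer cells of a type and less RNA per cell cannot be told apart.

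Promoters of 4 genes on which the results turn are shown first. Hmgcs1 encodes the HMG-CoA synthase at the entry to the mevalonate pathway, Insig1 the feedback protein named above, and Nsdhl and Ebp are late sterol enzymes that THZ1 lowered in both lines. Each is 300 bases of the GRCm38.p6 assembly from RefSeq, 250 before and 50 after the annotated start, written 5′ to 3′ on the gene's strand. Hmgcs1 is chr13:119690101-119690400 (plus strand), Insig1 chr5:28071162-28071461 (plus), Nsdhl chrX:72918271-72918570 (plus) and Ebp chrX:8193463-8193762 (minus). Capitals mark matches on either strand to the sterol regulatory element TCACNCCAC, the E-box CACGTG, the CCAAT box and the GC box GGGCGG.
Hmgcs1: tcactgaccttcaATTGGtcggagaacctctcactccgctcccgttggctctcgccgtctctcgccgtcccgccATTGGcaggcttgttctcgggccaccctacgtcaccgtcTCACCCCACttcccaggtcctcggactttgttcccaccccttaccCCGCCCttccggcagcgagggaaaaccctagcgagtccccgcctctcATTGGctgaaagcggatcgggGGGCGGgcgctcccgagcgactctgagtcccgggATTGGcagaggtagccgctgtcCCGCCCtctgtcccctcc
Insig1: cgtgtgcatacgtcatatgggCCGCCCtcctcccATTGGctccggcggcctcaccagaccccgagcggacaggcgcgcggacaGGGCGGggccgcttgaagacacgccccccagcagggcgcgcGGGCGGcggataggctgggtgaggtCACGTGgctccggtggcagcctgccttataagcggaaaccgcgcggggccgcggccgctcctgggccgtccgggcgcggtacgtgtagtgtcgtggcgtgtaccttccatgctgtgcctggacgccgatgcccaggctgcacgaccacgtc
Nsdhl: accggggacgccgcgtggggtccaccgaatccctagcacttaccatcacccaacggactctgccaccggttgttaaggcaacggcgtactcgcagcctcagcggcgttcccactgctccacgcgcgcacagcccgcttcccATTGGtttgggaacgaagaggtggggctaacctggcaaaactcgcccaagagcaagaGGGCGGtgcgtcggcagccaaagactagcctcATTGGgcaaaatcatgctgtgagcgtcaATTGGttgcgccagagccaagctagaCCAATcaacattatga
Ebp: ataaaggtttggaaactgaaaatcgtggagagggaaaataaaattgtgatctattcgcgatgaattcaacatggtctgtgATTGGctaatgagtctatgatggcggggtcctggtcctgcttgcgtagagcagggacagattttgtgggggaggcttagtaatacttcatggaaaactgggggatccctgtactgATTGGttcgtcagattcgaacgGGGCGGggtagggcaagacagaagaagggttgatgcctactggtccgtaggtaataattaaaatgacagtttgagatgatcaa

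The sterol regulatory element stood in the window of Hmgcs1 alone among the 26 members with a window, against 1.44% of 27025 genes. CCAAT stood in 21 of the 26 (80.8%, against 41.1% of genes), GGGCGG in 22 (84.6% against 38.2%) and CACGTG in 5 (19.2% against 8.09%). These searches describe letters in the windows only, and overlapping matches of different motifs were counted for each.

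In SMB56 cells under DMSO, levels differed widely between the genes. On the authors' FPKM scale, which is per length, the highest mean was that of Acly, the enzyme that makes cytosolic acetyl-CoA, at 153. Scd2, a stearoyl-CoA desaturase, was next at 104. Among sterol enzymes the thiolase Acat2 had 60.7 FPKM and Hmgcs1 55.8, while the squalene epoxidase Sqle had 44.1, Nsdhl 15.8 and the phosphomevalonate kinase Pmvk 7.5. Of the regulators Insig1 stood at 65.0 FPKM, Srebf2 at 32.9, Srebf1 at 32.2, Scap at 19.6 and Insig2 at 15.4. The lowest was Npc1, the lysosomal cholesterol exporter, at 3.96. Fdps, the farnesyl diphosphate synthase, had 95.6 FPKM on only 110 and 120 counts. Its ratio of FPKM to counts was 13.7 to 86.0 per 100 counts over the libraries, against 0.202 to 5.60 for every other member. It shares 26.7% of its annotated exon bases with Gm43738 on the same strand, so its counts are uncertain throughout.

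The SMB56-shSufu DMSO libraries stood apart from each other in these genes, which touches every result that uses them. Replicate 1 was the higher for every member but Insig2. Hmgcs1 had 522 and 166 CPM in replicates 1 and 2, a ratio of 3.14. The ratio was 2.91 for the lanosterol synthase Lss (162 and 55.6 CPM), 2.84 for Nsdhl (127 and 44.8 CPM) and 2.75 for Cyp51, the lanosterol demethylase (461 and 168 CPM). In all, replicate 1 was at least 2-fold higher in 18 of the 33 members (54.5%), against 75 of 11886 genes tested (0.631%). By role it was at least 2-fold higher in 14 of 18 sterol enzymes, 1 of 5 SREBP control genes, 3 of 8 fatty acid enzymes and 0 of 2 transport genes. The median ratio was 2.11 over the members, 2.64 over the sterol enzymes and 1 over all genes tested.

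The gap was uneven. Srebf1 had 88.7 and 83.9 CPM, a ratio of 1.06, and Ebp 40.4 and 34.6 CPM, a ratio of 1.17. Insig2, the paralog of Insig1, stood at 17 and 21.8 CPM, a ratio of 0.778. Insig1 had 331 and 151 CPM, a ratio of 2.2. Of the fatty acid enzymes, the desaturase Scd1 had a ratio of 2.64, the fatty acid synthase Fasn 2.11 and Acly 2.02, while the acetyl-CoA carboxylase Acaca had 1.58 and Scd2 1.55. Among the lists of other lipid genes, Acss2, which makes acetyl-CoA from acetate and was picked after its values were seen, was the only gene at least 2-fold apart, at 66.9 and 23.7 CPM.

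In the 4 other groups, every member's ratio between the libraries lay between 0.809 and 1.44. Mitochondrially encoded genes took 5.92% of the counts in the first SMB56-shSufu DMSO library and 8.29% in the second. Gli1 had 213 and 164 CPM in them, Sufu 18.5 and 19 CPM, and the astrocyte markers summed to 187 and 284 CPM. The part of these values in the gap was not tested. The total of members called in each comparison that uses these libraries is therefore given with both and with each alone, and so is the log2 change of every gene of the pathway named in those comparisons. A fit with 1 DMSO library assumes that it varies like the other libraries of the fit.

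**Figure D1:**
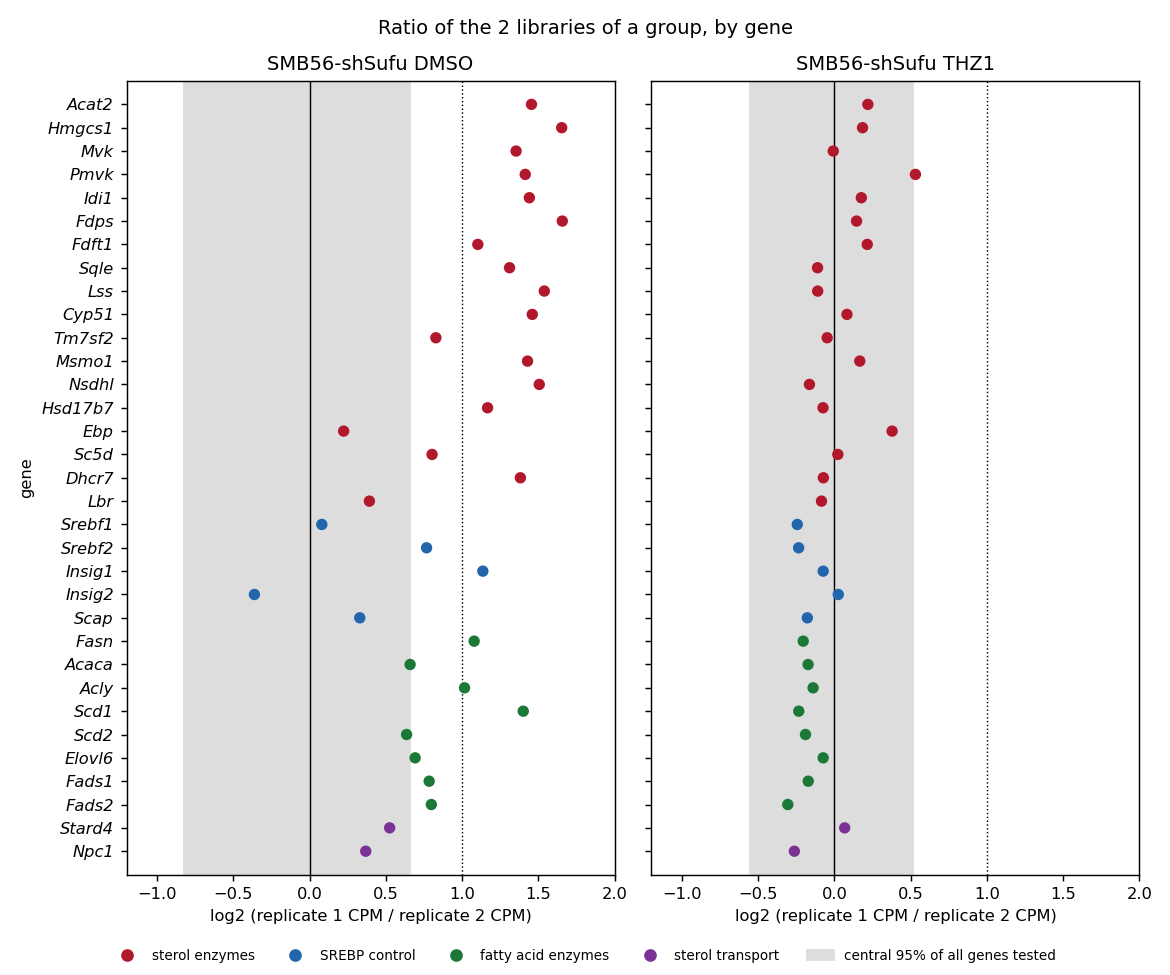
Ratio between the libraries of a group for each of 33 genes, as log2 of replicate 1 CPM over replicate 2 CPM (x axis), in SMB56-shSufu DMSO (left) and SMB56-shSufu THZ1 (right). Points are genes coloured by role, the grey band holds the central 95% of all genes tested and the dotted line marks 2-fold; 18 genes lie past that line on the left and 0 on the right.

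**Figure D2:**
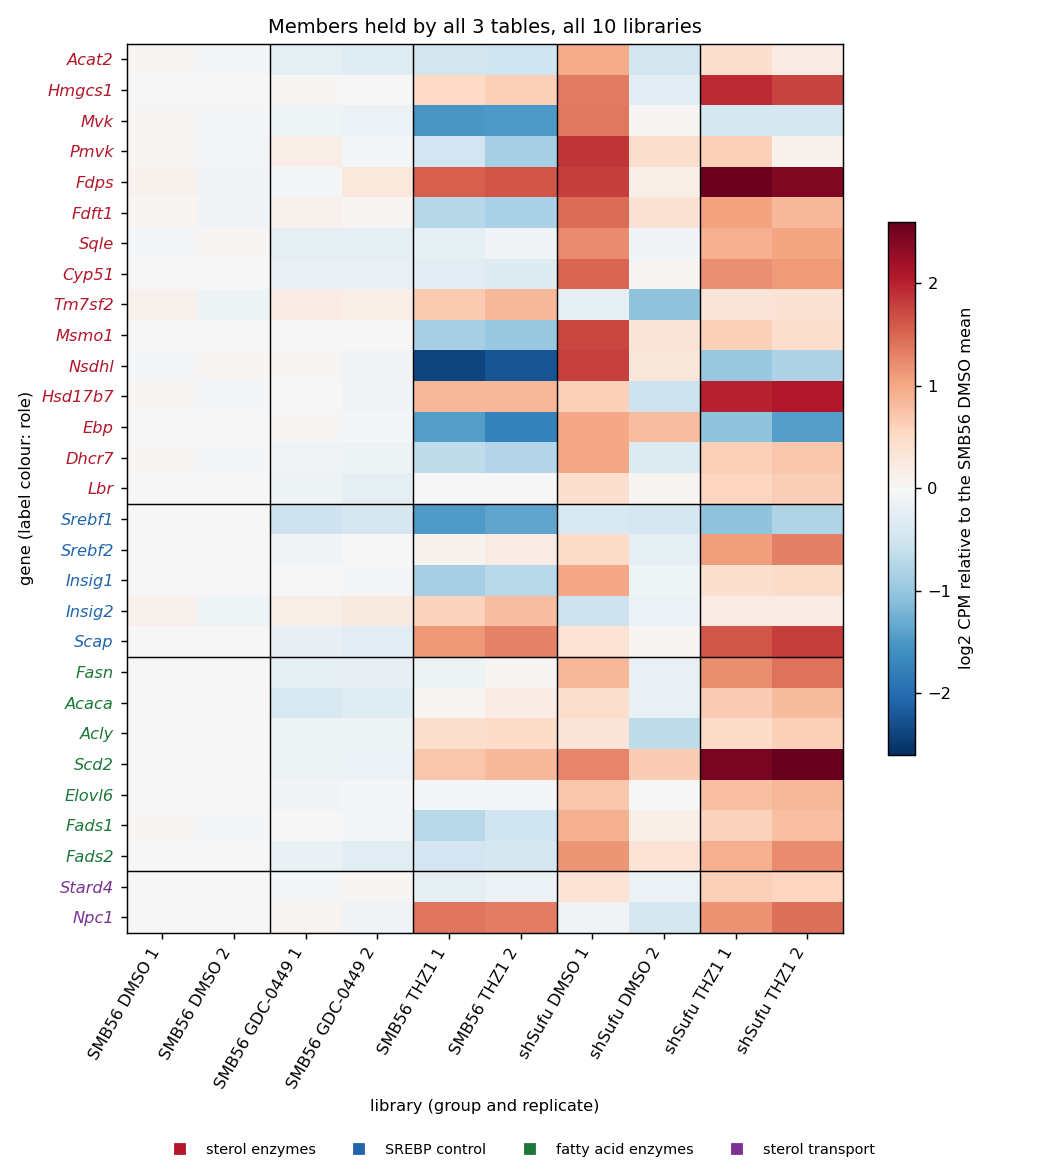
Level of the 29 members held by all 3 tables in each of the 10 libraries, as log2 CPM relative to the SMB56 DMSO mean (colour), normalized over all 10 libraries together. Rows are genes ordered by role and columns are libraries by group; the SMB56-shSufu DMSO columns differ from each other in most sterol enzymes, while the columns of each other group are close in colour.

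The first comparison asked what THZ1 did to these genes in SMB56. After 8 hours the late sterol enzymes Nsdhl and Ebp, the mevalonate kinase Mvk and the regulator Srebf1 fell at least 3.22-fold, and most other sterol enzymes fell less. Of the 29 genes tested, 20 were lower and 9 higher, where 55.2% of 9863 genes were lower and 44.3% higher. They were 11 lower and 4 higher of 15 sterol enzymes, 3 and 2 of 5 SREBP control genes, 5 and 2 of 7 fatty acid enzymes and 1 and 1 of 2 transport genes. The table for this comparison holds almost no gene without a call (99.5% of 9863 genes passed edgeR's test), so the count of members called carries no information. The median log2 fold change was -0.75 for the sterol enzymes and -0.31 for all genes tested. That median of all genes, used as a reference below, and the TMM and DESeq2 scalings rest on this selected table. They may differ from those of unselected genes.

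Nsdhl, which takes part in removing the methyl groups of lanosterol, fell from 46.1 and 49.1 CPM to 7.65 and 8.39, a log2 change of -2.57 ± 0.10 (SE; edgeR adjusted p = 3e-15). Ebp, the sterol isomerase, fell from 26 and 25.4 CPM to 7.94 and 6.37, or -1.84 ± 0.13 (edgeR adjusted p = 2.2e-11). Msmo1, the methylsterol oxidase that works before Nsdhl, fell from 105 and 106 CPM to 48.2 and 44.7, or -1.18 ± 0.062 (edgeR adjusted p = 2.1e-13). In all 3 genes both THZ1 libraries lay far below both DMSO libraries.

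Earlier in the pathway, Mvk fell from 39.3 and 37.4 CPM to 11.3 and 11.4, a log2 change of -1.76 ± 0.10 (edgeR adjusted p = 6.3e-13). Fdft1, the squalene synthase, fell from 147 and 136 CPM to 70.7 and 66.7, or -1.04 ± 0.058 (edgeR adjusted p = 5.6e-13). Dhcr7, which reduces the last sterol intermediate to cholesterol, fell by 0.96 ± 0.075 on the log2 scale (edgeR adjusted p = 1.3e-10), and Sqle by 0.40 ± 0.053 (edgeR adjusted p = 3.8e-07). Pmvk, Acat2 and Cyp51 fell by 0.92, 0.75 and 0.57. Lbr, a sterol reductase of the nuclear envelope, was at -0.25, which turned to 0.053 with DESeq2 size factors. Each of these genes was lower in both THZ1 libraries than in either DMSO library.

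Among the regulators, Srebf1 fell from 150 and 149 CPM to 44.9 and 48.2, a log2 change of -1.69 ± 0.058 (edgeR adjusted p = 2.5e-16). Insig1 fell from 212 and 212 CPM to 97.3 and 108, or -1.05 ± 0.051 (edgeR adjusted p = 6.1e-14). Srebf2 had 263 and 265 CPM under DMSO and 234 and 256 under THZ1, or -0.11 ± 0.046 (edgeR adjusted p = 0.03), which turned to 0.20 with DESeq2 size factors. So the SREBP genes parted, with Srebf1 far below the median of all genes and Srebf2 above it. Scap rose from 89.1 and 87.6 CPM to 162 and 182, or 0.96 ± 0.055 (edgeR adjusted p = 9.8e-13), which turned to -0.30 when scaled to mitochondrial counts. Insig2 was at 0.46 ± 0.087 (edgeR adjusted p = 5e-05) and turned to -0.81 with that scaling.

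Of the fatty acid genes, the desaturases Fads1 and Fads2 fell by 0.88 ± 0.058 (edgeR adjusted p = 1e-11) and 0.74 ± 0.050 (1.3e-11) on the log2 scale. Fasn (-0.30 ± 0.053), the elongase Elovl6 (-0.30 ± 0.048) and Acaca (-0.13 ± 0.048) were lower by no more than the median of all genes, and turned positive with DESeq2 size factors. Scd2 rose from 726 and 739 CPM to 1020 and 1100, or 0.53 ± 0.049 (edgeR adjusted p = 1.9e-09), and Acly was higher by 0.21 ± 0.046 (0.00018), and both turned negative with FPKM or mitochondrial scaling. Of the transport genes, Npc1 rose from 32.4 and 32.4 CPM to 70.7 and 68.1, or 1.1 ± 0.068 (edgeR adjusted p = 3.1e-12), which turned to -0.17 with mitochondrial scaling. Stard4, a soluble sterol carrier, fell by 0.46 ± 0.049 (edgeR adjusted p = 1.9e-08).

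Hmgcs1 went against most other early enzymes. It had 258 and 265 CPM under DMSO and 310 and 335 CPM under THZ1, a log2 change of 0.30 ± 0.045 (edgeR adjusted p = 2.4e-06), which turned to -0.059 with library size alone and to -0.31 on the FPKM scale. Hsd17b7, a ketosterol reductase that works with Nsdhl, was higher by 0.60 ± 0.060 (edgeR adjusted p = 6.1e-09) and the sterol reductase Tm7sf2 by 0.52 ± 0.090 (1.5e-05), and both turned negative with FPKM or mitochondrial scaling. Tm7sf2 shares 12.1% of its exon bases with Vps51. Fdps counts rose from 8.33 and 7.35 CPM to 19.1 and 20.4, or 1.33 ± 0.13 (edgeR adjusted p = 5.3e-09), while its FPKM went from 96.6 and 94.6 to 52.7 and 54.1, so its direction is not known.

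Scaling set the sign of the smaller changes. The median log2 change of all genes was -0.31 with TMM, -0.006 with DESeq2 size factors, -0.68 with library size alone, -0.84 on the FPKM scale and -1.58 when libraries were scaled to mitochondrially encoded genes. Those genes took 3.75% and 3.74% of counts under DMSO and 7.55% and 6.55% under THZ1. Members called higher and lower numbered 9 and 20 with TMM, 11 and 14 with DESeq2 size factors, 5 and 21 with library size, 2 and 23 on the FPKM scale and 0 and 27 with mitochondrial scaling. The falls of Nsdhl, Ebp, Mvk, Srebf1, Msmo1, Insig1 and Fdft1 kept their sign and their call under every one of these. Cell type markers moved too. The 7 granule neuron and Hedgehog markers summed to 2630 and 2610 CPM under DMSO and 4110 and 4220 under THZ1, with 4 higher and 3 lower, and the 3 oligodendrocyte markers to 28 and 30.9 against 17.8 and 18.8. The 3 astrocyte markers summed to 631 and 641 CPM under DMSO and 407 and 412 under THZ1, most of it Slc1a2, while Gfap of that list went from 1.18 and 1.2 to 10.5 and 10.7. The part of these markers in the changes of the members was not tested.

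**Figure D3:**
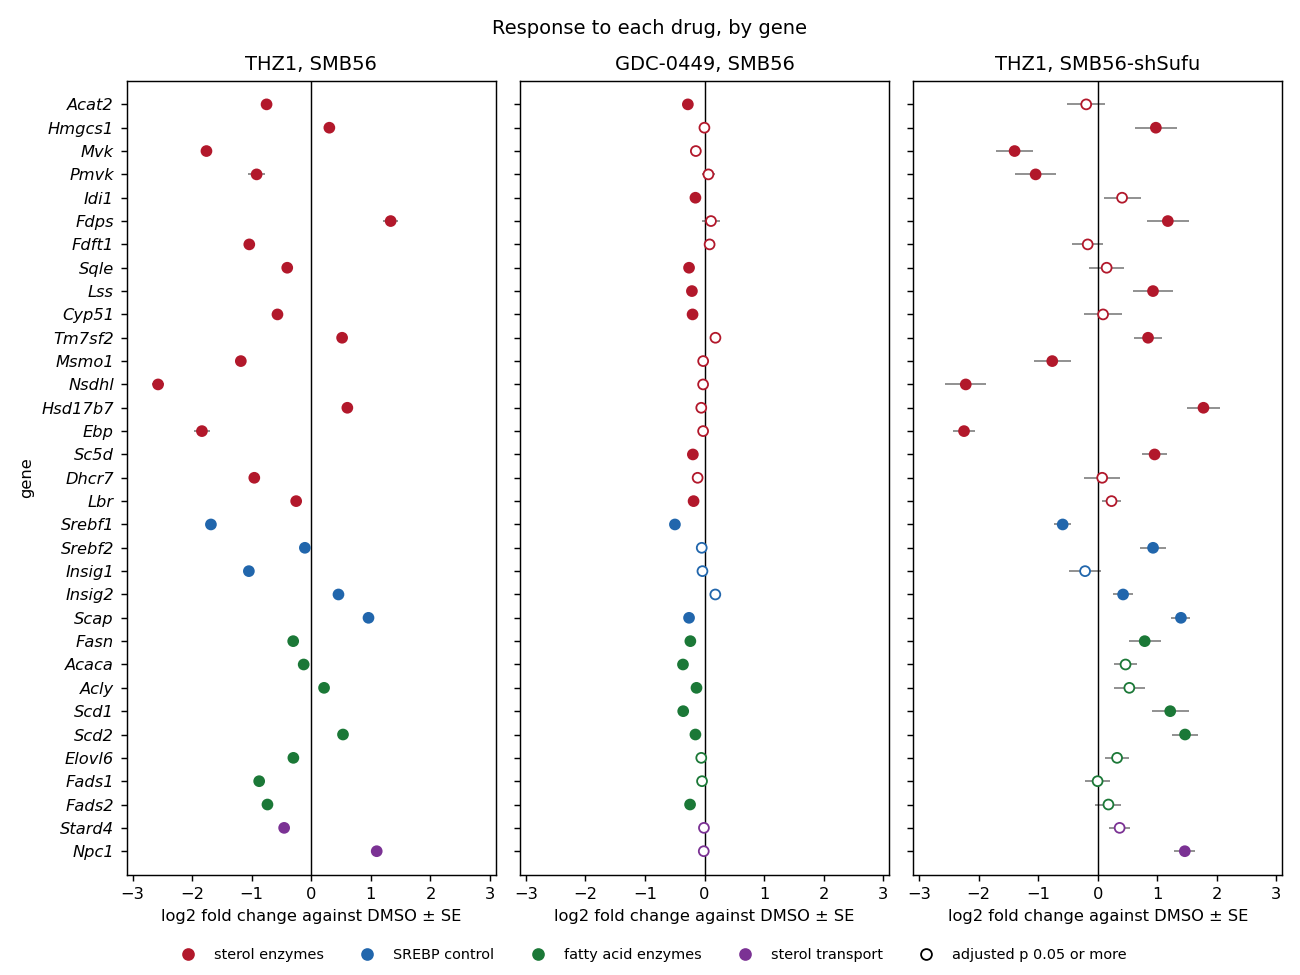
Log2 fold change against DMSO (x axis, ± SE from the edgeR fit) for each gene, with a panel for either drug in SMB56 and one for THZ1 in SMB56-shSufu. Filled points have an adjusted p under 0.05 and open points do not; Nsdhl, Ebp and Mvk lie far left in both THZ1 panels, and every gene lies near 0 in the GDC-0449 panel.

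The next comparison, of GDC-0449 with DMSO, uses the same SMB56 DMSO libraries. GDC-0449 lowered Srebf1 and most fatty acid enzymes by small amounts, and Nsdhl, Ebp and Mvk were not called. Of 33 genes tested, 15 were lower and 0 higher by edgeR, where 18.8% of 10008 genes were lower and 17.5% higher (36.3% in all). At an unadjusted p under 0.05 edgeR had 2 higher, and DESeq2 and limma called 0 higher. With library size alone 14 were lower and 3 higher. By role, the 15 genes lower in the main edgeR fit were 7 of 18 sterol enzymes, 2 of 5 SREBP control genes, 6 of 8 fatty acid enzymes and 0 of 2 transport genes. The median log2 change was -0.20 for the fatty acid enzymes, -0.086 for the sterol enzymes and -0.009 for all genes.

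Srebf1 fell from 150 and 149 CPM to 103 and 110, a log2 change of -0.50 ± 0.043 (edgeR adjusted p = 8.4e-11). Acaca, which makes malonyl-CoA, fell from 230 and 230 CPM to 174 and 184, or -0.36 ± 0.037 (edgeR adjusted p = 3e-09). Scd1 fell from 36 and 38.6 CPM to 28 and 30.3, or -0.36 ± 0.075 (edgeR adjusted p = 0.00035). The GDC-0449 libraries were below the DMSO libraries in each of these genes. Acat2 fell from 210 and 204 CPM to 176 and 165, or -0.28 ± 0.038 (edgeR adjusted p = 7.6e-07). The change of Srebf1, 1.41-fold, was the largest among the 33 genes.

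Smaller falls were seen for Scap (-0.26 ± 0.051, edgeR adjusted p = 0.00014), Sqle (-0.26 ± 0.038, 2.1e-06), Fasn (-0.24 ± 0.030, 1.8e-07) and Scd2 (-0.15 ± 0.030, 0.00018). The other called genes, Fads2, Lss, Cyp51, Sc5d, Lbr, Idi1 and Acly, fell by 0.14 to 0.24. The values of Hmgcs1 (-0.002 ± 0.034), Insig1 (-0.035 ± 0.035), Srebf2 (-0.047 ± 0.034), Dhcr7 (-0.12 ± 0.060) and Insig2 (0.18 ± 0.078) did not pass the test. Nsdhl stood at 46.2 and 49.2 CPM under DMSO and 48.5 and 45.3 under GDC-0449, and Ebp at 26.1 and 25.5 under DMSO and 26.1 and 24.6 under GDC-0449, and in both the groups overlapped. Mvk stood at 39.4 and 37.5 CPM under DMSO and 35.2 and 34.3 under GDC-0449, without overlap and without a call. The number called was 12 with DESeq2, 6 with limma on FPKM and 1 when all 10 libraries shared an estimate of the spread. It was 23 with mitochondrial scaling, where mitochondrially encoded genes took 3.29% of counts in both DMSO libraries and 3.70% and 3.52% with GDC-0449. The share of all genes called under these settings is not given here, so whether the members shifted more than other genes cannot be told. The 8 granule neuron and Hedgehog markers summed to 2870 and 2860 CPM under DMSO and 2930 and 2900 with GDC-0449, with 4 higher and 4 lower, and the 2 astrocyte markers to 631 and 641 against 741 and 797, and their part was not tested.

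Tested directly, THZ1 and GDC-0449 differed in 28 of 29 genes, 14 higher and 14 lower with THZ1. Of all 7417 genes tested, 90.3% differed, 39.5% higher and 50.8% lower. All of them stand in the SMB56 THZ1 table, which holds almost only genes that differ between THZ1 and the same DMSO libraries. The number that differed thus carries little information. With library size alone 5 members were higher and 20 lower, with DESeq2 size factors 15 and 10, and on the FPKM scale 2 and 22. Srebf1 was lower with THZ1 than with GDC-0449 by 0.93 ± 0.060 on the log2 scale (edgeR adjusted p = 2.8e-13), Insig1 by 0.76 ± 0.048 (1.8e-13) and Dhcr7 by 0.58 ± 0.074 (8.2e-08). Scap was higher with THZ1 by 1.48 ± 0.056 (edgeR adjusted p = 4.9e-18), and kept that sign under every scaling. Scd2 (0.94), Hmgcs1 (0.56), Insig2 (0.53), Acaca (0.49), Srebf2 (0.20), Fasn (0.19) and Sqle (0.11) were also higher, and all of them turned negative with mitochondrial scaling, as 0 members were higher and 26 lower on that scale.

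In SMB56-shSufu, THZ1 lowered Nsdhl, Ebp, Mvk and Srebf1, and raised Scap, Npc1, Hsd17b7 and Scd2, whichever DMSO library served as control. Other sterol enzymes changed sign or size with that choice. With both DMSO libraries, 13 of 33 genes were higher and 6 lower, where 29.5% of 11886 genes were higher and 32.3% lower (61.9% in all). By role the counts were 6 higher and 5 lower of 18 sterol enzymes, 3 and 1 of 5 SREBP control genes, 3 and 0 of 8 fatty acid enzymes and 1 and 0 of 2 transport genes. Against DMSO replicate 2 alone, 26 were higher and 4 lower, where 65.6% of all genes were called, and against replicate 1 alone 12 were higher and 13 lower, where 64.8% were called. The median log2 change of the sterol enzymes was 0.12 with both, 0.94 against replicate 2 and -0.41 against replicate 1, while that of all genes was -0.043, -0.032 and -0.030.

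Ebp fell from 40.4 and 34.6 CPM to 8.95 and 6.86, a log2 change of -2.25 ± 0.19 (edgeR adjusted p = 1.1e-06), with -2.13 against DMSO replicate 2 alone and -2.35 against replicate 1 alone. Nsdhl fell from 127 and 44.8 CPM to 17.5 and 19.6, or -2.22 ± 0.34 (edgeR adjusted p = 0.00011), with -1.27 and -2.78 in the same order. Mvk fell from 77 and 30.1 CPM to 20.3 and 20.4, or -1.4 ± 0.31 (edgeR adjusted p = 0.0016), with -0.56 and -1.92. The THZ1 libraries of these genes lay below both DMSO libraries, and each gene was called against either. Srebf1 fell from 88.7 and 83.9 CPM to 52.5 and 62.2, or -0.59 ± 0.14 (edgeR adjusted p = 0.0034), with -0.55 and -0.63, both called. Its call was lost without THZ1 replicate 1, at -0.46 (edgeR adjusted p = 0.085).

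Other falls depended on single libraries. Pmvk had 43.6 and 16.3 CPM under DMSO and 17.2 and 11.8 under THZ1, or -1.04 ± 0.34 (edgeR adjusted p = 0.017), but -0.17 (0.46) without DMSO replicate 1, -1.58 (1.6e-19) without DMSO replicate 2 and -0.80 (0.085) without THZ1 replicate 2. Msmo1 had 275 and 102 CPM against 117 and 105, or -0.76 ± 0.31 (edgeR adjusted p = 0.048), but 0.12 (0.5) without DMSO replicate 1, -1.31 (3e-17) without DMSO replicate 2, and -0.84 (0.064) and -0.68 (0.12) without THZ1 replicates 1 and 2. In both genes the groups overlapped. Insig1 had 331 and 151 CPM against 202 and 213, or -0.21 ± 0.26 (edgeR adjusted p = 0.5), and was called at 0.46 against DMSO replicate 2 and at -0.67 against replicate 1. Acat2, Fdft1, Sqle, Cyp51, Dhcr7 and Fads1 were likewise called in opposite directions. With both DMSO libraries, Sqle (0.15 ± 0.29) and Dhcr7 (0.074 ± 0.30) did not pass the test. Against DMSO replicate 2 and replicate 1, Sqle was at 0.95 and -0.36, Dhcr7 at 0.93 and -0.46, Acat2 at 0.71 and -0.74, Fdft1 at 0.48 and -0.62, Cyp51 at 1.0 and -0.46 and Fads1 at 0.44 and -0.34.

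Hsd17b7 rose from 68.5 and 30.4 CPM to 165 and 173, a log2 change of 1.77 ± 0.27 (edgeR adjusted p = 9.7e-05). Scd2 rose from 1380 and 886 CPM to 2920 and 3330, or 1.47 ± 0.22 (edgeR adjusted p = 9.1e-05), and Npc1 from 23.6 and 18.3 CPM to 52.5 and 63, or 1.46 ± 0.17 (1.5e-05). Scap rose from 88.1 and 70.2 CPM to 195 and 221, or 1.4 ± 0.16 (edgeR adjusted p = 1e-05). Against DMSO replicate 2 and replicate 1 alone, Hsd17b7 was at 2.47 and 1.3, Scd2 at 1.82 and 1.18, Npc1 at 1.66 and 1.29 and Scap at 1.57 and 1.24. These 4 genes were above both DMSO libraries, were called against each alone, and kept a positive value under every scaling, without a call under mitochondrial scaling.

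Scd1 rose from 96.2 and 36.4 CPM to 141 and 166, a log2 change of 1.22 ± 0.31 (edgeR adjusted p = 0.004), and Fdps counts from 21.3 and 6.68 CPM to 33.2 and 30, or 1.18 ± 0.36 (0.011), with the reverse sign in FPKM. Hmgcs1 rose by 0.97 ± 0.36 (edgeR adjusted p = 0.029), Srebf2 by 0.93 ± 0.22 (0.0023), Fasn by 0.79 ± 0.27 (0.022) and Insig2 by 0.42 ± 0.17 (0.046). Lss, Sc5d, a late sterol desaturase, and Tm7sf2 rose by 0.93, 0.95 and 0.84. All 9 of these genes turned negative with mitochondrial scaling. Against DMSO replicate 2 and replicate 1 alone, Hmgcs1 was at 2.03 and 0.37, Srebf2 at 1.36 and 0.59, Scd1 at 2.08 and 0.68 and Fdps at 2.24 and 0.57. In the same order Fasn was at 1.43 and 0.35, Insig2 at 0.26 and 0.62, Lss at 1.89 and 0.35, Sc5d at 1.41 and 0.61, Tm7sf2 at 1.32 and 0.49 and Acaca at 0.83 and 0.17. Fasn lost its call against replicate 1 (edgeR adjusted p = 0.075), and without THZ1 replicate 2, at 0.69 (0.074). Hmgcs1 lost its call without THZ1 replicate 1, at 0.89 (edgeR adjusted p = 0.06). Insig2 kept its call only with DMSO replicate 2 left out, and without DMSO replicate 1 was at 0.26 (edgeR adjusted p = 0.19). Acaca, at 0.47 ± 0.20, did not pass (edgeR adjusted p = 0.053).

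Mitochondrially encoded genes took 13.1% and 13% of counts in the SMB56-shSufu THZ1 libraries. Scaled to them, the median log2 change of all genes was -1.37, and 0 members were higher and 21 lower. Library size alone gave a median of -0.45 with 7 higher and 6 lower, and limma on FPKM a median of -0.57 with 4 higher and 7 lower. The 9 granule neuron and Hedgehog markers summed to 1990 and 1820 CPM under DMSO and 4300 and 4290 under THZ1, with 6 higher and 2 lower. The 2 astrocyte markers summed to 187 and 284 against 156 and 194, the 3 oligodendrocyte markers to 19.4 and 24 against 19.4 and 21.1, and the part of these markers in the changes was not tested.

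**Figure D4:**
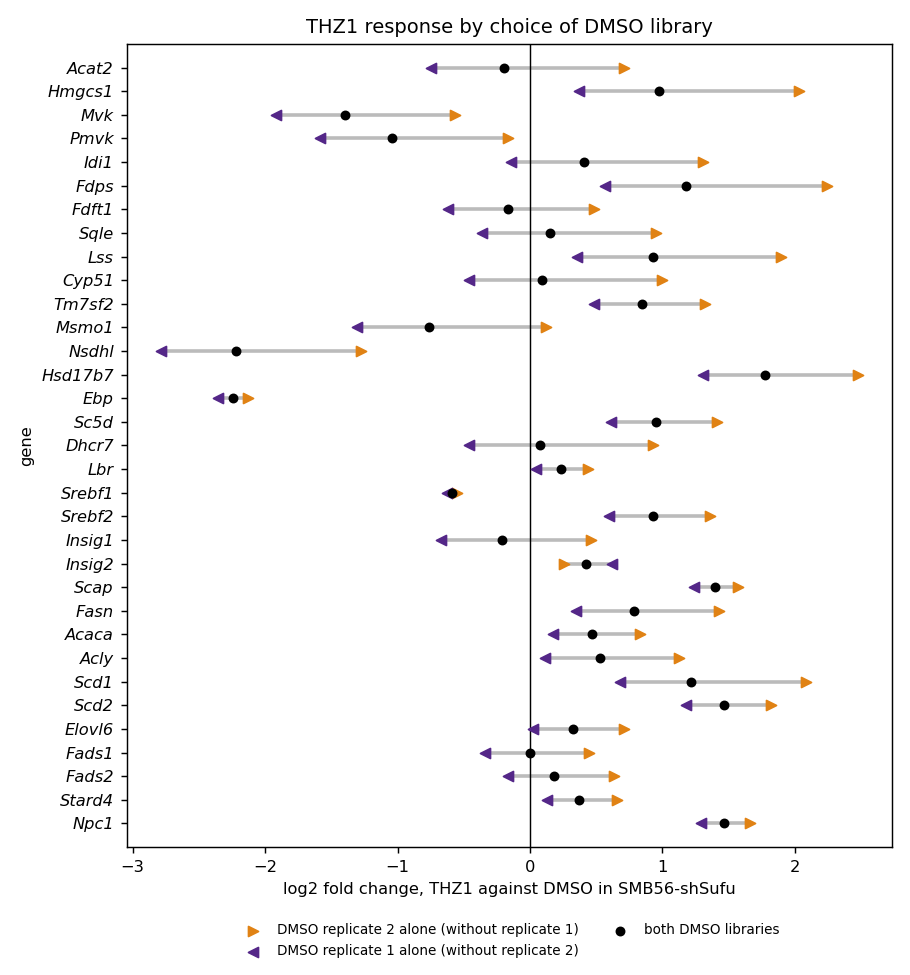
Log2 fold change with THZ1 in SMB56-shSufu (x axis) for each gene (y axis), with both DMSO libraries (black points) and with each DMSO library alone (triangles). Bars span the values of a gene; Ebp, Srebf1 and Scap have short bars, while those of Acat2, Cyp51, Dhcr7, Fdft1, Insig1 and Sqle cross 0.

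Between the lines under DMSO, the sterol enzymes and stearoyl-CoA desaturases were higher in SMB56-shSufu on average. For most of these genes this came mainly through its first DMSO library, while Ebp, Sc5d and Scd2 kept much of their difference without it. With both libraries, 13 of 33 genes were higher and 2 lower, where 25.7% of 9719 genes were higher and 25.4% lower (51.1% in all). With library size alone 9 were higher and 3 lower, and on the FPKM scale 6 and 3. The higher genes were 9 of 18 sterol enzymes and 4 of 8 fatty acid enzymes. Without SMB56-shSufu DMSO replicate 1, 8 were higher and 8 lower, where 56.7% of all genes were called, and without replicate 2, 29 were higher and 2 lower, where 60.7% were called. The median log2 difference was 0.58 with both, 0.020 without replicate 1 and 1.02 without replicate 2.

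Pmvk had 14.3 and 13.6 CPM in SMB56 and 50.5 and 19.1 in SMB56-shSufu, a log2 difference of 1.32 ± 0.38 (edgeR adjusted p = 0.016), with 0.46 (0.068) without replicate 1 and 1.87 (2.6e-05) without replicate 2. Nsdhl had 41.8 and 44.4 CPM against 148 and 52.6, or 1.22 ± 0.36 (edgeR adjusted p = 0.019), with 0.29 (0.032) without replicate 1 and 1.79 (1.8e-06) without replicate 2. Msmo1 had 95.4 and 95.7 CPM against 319 and 120, or 1.2 ± 0.34 (edgeR adjusted p = 0.015), with 0.33 (0.0068) without replicate 1 and 1.75 (1.1e-06) without replicate 2. In each of these genes, and in Fdps, the second SMB56-shSufu library lay not far above SMB56. Fdps had 7.55 and 6.64 CPM against 24.7 and 7.85, or 1.2 ± 0.43 (edgeR adjusted p = 0.043), with 0.15 (0.47) without replicate 1 and 1.81 (1e-05) without replicate 2.

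Scd1 had 32.6 and 34.8 CPM in SMB56 and 111 and 42.7 in SMB56-shSufu, a log2 difference of 1.19 ± 0.34 (edgeR adjusted p = 0.017), with 0.34 (0.03) without replicate 1 and 1.74 (3.5e-06) without replicate 2. Sc5d had 61.3 and 59.4 CPM against 154 and 89.7, or 1.01 ± 0.20 (edgeR adjusted p = 0.0026), with 0.57 (0.00027) without replicate 1 and 1.37 (2.2e-06) without replicate 2. Fdft1 had 133 and 123 CPM against 350 and 165, or 1.01 ± 0.27 (edgeR adjusted p = 0.012), with 0.37 (0.0086) without replicate 1 and 1.46 (3.4e-06) without replicate 2. Both SMB56-shSufu libraries were above SMB56 in each. Scd2 had 658 and 668 CPM against 1600 and 1040, or 0.99 ± 0.17 (edgeR adjusted p = 0.0013), with 0.65 (0.00025) without replicate 1 and 1.28 (4.6e-06) without replicate 2. Ebp had 23.6 and 23 CPM against 46.9 and 40.7, or 0.91 ± 0.13 (edgeR adjusted p = 0.00051), with 0.81 (0.00061) without replicate 1 and 1.02 (0.00012) without replicate 2.

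Srebf1 was lower in SMB56-shSufu, at 103 and 98.5 CPM against 136 and 135 in SMB56, a log2 difference of -0.43 ± 0.10 (edgeR adjusted p = 0.0052), with -0.46 and -0.39 without SMB56-shSufu DMSO replicates 1 and 2, and stayed called with any single library left out. Tm7sf2 was lower by 0.60 ± 0.22 (edgeR adjusted p = 0.045), with -1.06 and -0.23 in the same order. The values of Srebf2 (0.17 ± 0.20), Insig1 (0.55 ± 0.27), Insig2 (-0.33 ± 0.14), Scap (0.21 ± 0.11), Hmgcs1 (0.76 ± 0.38), Sqle (0.71 ± 0.31), Dhcr7 (0.48 ± 0.33), Fasn (0.42 ± 0.26) and Acaca (0.17 ± 0.17) did not pass the test with both libraries. Without replicate 1 and without replicate 2, Srebf2 was at -0.25 and 0.51, Insig1 at -0.12 and 1.01, Insig2 at -0.15 and -0.52, Scap at 0.043 and 0.36 and Hmgcs1 at -0.28 and 1.37. Sqle was at -0.075 and 1.23, Dhcr7 at -0.36 and 1.02, Fasn at -0.21 and 0.86 and Acaca at -0.19 and 0.46. Without SMB56 DMSO replicate 1 or 2, 5 or 4 members were called, among them Ebp, Sc5d, Scd2 and Srebf1 each time. A fit of the 4 DMSO libraries alone called 5. With mitochondrial scaling, where the median of all genes was -1.23, 0 members were higher and 12 lower, and Ebp, Sc5d and Scd2 turned negative. Of 8 granule neuron and Hedgehog markers 2 were higher and 2 lower in SMB56-shSufu, and of 2 astrocyte markers 1 was lower, and their part was not tested.

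**Figure D5:**
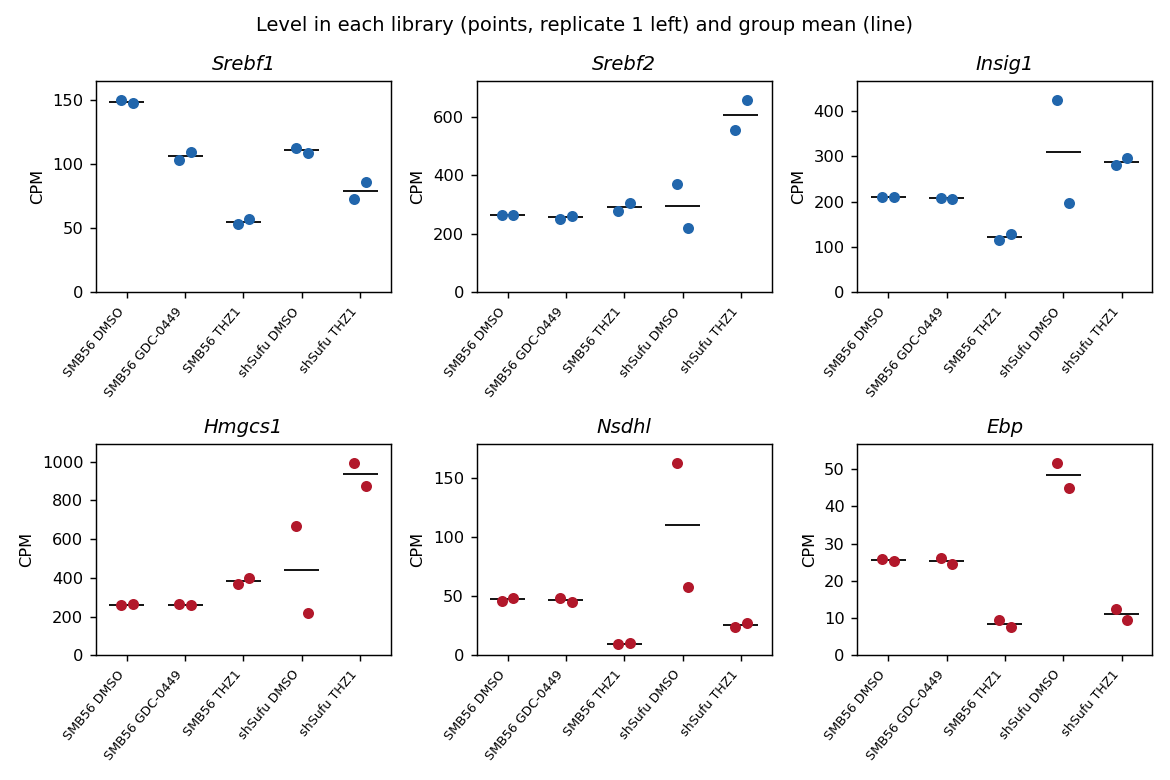
CPM of 6 genes in each of the 10 libraries (y axis, from 0), normalized over all 10 libraries together, by group (x axis), with points for libraries and a line for the group mean. Srebf1 and Ebp have close pairs in every group, while Insig1, Hmgcs1 and Nsdhl have widely parted points in SMB56-shSufu DMSO.

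The THZ1 response was then compared between the lines. Srebf1 fell less in SMB56-shSufu than in SMB56, and the responses of Srebf2, Scd2 and Stard4 were shifted upward. These 4 of 29 genes passed the test of the difference, all in that direction, where 10.4% of 8204 genes passed in that direction and 7.89% in the other (18.3% in all). All genes of this fit stand in the SMB56 THZ1 table, which is selected on the response in SMB56. The shares may thus differ from those of unselected genes, and Idi1, Lss, Sc5d and Scd1 could not be tested. Without SMB56-shSufu DMSO replicate 1, 25 passed, all in that direction, where 34% of all genes passed in either. Without replicate 2, 12 passed, 9 in that direction and 3 in the other (Pmvk, Fdps and Ebp, at -0.82, -0.92 and -0.67), where 34.8% of all genes passed in either. Of 7 granule neuron and Hedgehog markers 3 passed with both libraries, all in that direction, and their part was not tested.

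Srebf1 had 137 and 136 CPM in SMB56 DMSO and 47.7 and 51.2 in SMB56 THZ1, and 104 and 99.1 in SMB56-shSufu DMSO and 65.4 and 77.8 in SMB56-shSufu THZ1. The difference in log2 change was 0.96 ± 0.14 (edgeR adjusted p = 0.0045), with 1.0 and 0.90 without SMB56-shSufu DMSO replicates 1 and 2. For Srebf2 the levels in SMB56 were 241 and 241 CPM under DMSO and 248 and 272 under THZ1, and in SMB56-shSufu 339 and 202 under DMSO and 502 and 593 under THZ1, a difference of 0.91 ± 0.27 (edgeR adjusted p = 0.044). The THZ1 libraries of Srebf2 lay close to DMSO in SMB56 and above both DMSO libraries in SMB56-shSufu.

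For Scd2 the levels in SMB56 were 665 and 674 CPM under DMSO and 1080 and 1170 under THZ1, and in SMB56-shSufu 1610 and 1050 under DMSO and 3630 and 4160 under THZ1, a difference of 0.80 ± 0.24 (edgeR adjusted p = 0.044). For Stard4 they were 146 and 147 CPM under DMSO and 120 and 128 under THZ1 in SMB56, and 185 and 130 under DMSO and 221 and 211 under THZ1 in SMB56-shSufu, a difference of 0.69 ± 0.20 (edgeR adjusted p = 0.036). Without SMB56-shSufu DMSO replicates 1 and 2, Srebf2 differed by 1.33 and 0.55, Scd2 by 1.15 and 0.50 and Stard4 by 0.97 and 0.43. All 4 genes kept their sign with either of these libraries left out. Such a fit has 1 library in that group and no longer holds the gap between the 2, so a call in it does not show stability. Without any 1 of the other 6 libraries Srebf1 alone was called, and the adjusted p of Srebf2 was then 0.069 to 0.17, that of Scd2 0.065 to 0.17 and that of Stard4 0.092 to 0.15 (edgeR). With mitochondrial scaling none was called.

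The other named genes did not pass: Hmgcs1 differed by 0.55 ± 0.52, Sqle by 0.42 ± 0.42, Dhcr7 by 0.91 ± 0.46, Insig1 by 0.71 ± 0.37, Insig2 by -0.16 ± 0.21, Scap by 0.30 ± 0.17, Fasn by 0.96 ± 0.36 and Acaca by 0.47 ± 0.24. Nsdhl (0.23 ± 0.56), Ebp (-0.53 ± 0.24) and Mvk (0.24 ± 0.49) did not pass either. Without SMB56-shSufu DMSO replicates 1 and 2, Hmgcs1 differed by 1.58 and -0.083, Sqle by 1.21 and -0.11, Dhcr7 by 1.75 and 0.35, Insig1 by 1.37 and 0.22, Insig2 by -0.34 and 0.009 and Scap by 0.47 and 0.13. Fasn differed by 1.59 and 0.50, Acaca by 0.82 and 0.15, Nsdhl by 1.16 and -0.36, Ebp by -0.43 and -0.67 and Mvk by 1.06 and -0.31.

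The response was also set beside gene structure, which the rule for choosing the genes does not hold. Across the 29 genes in SMB56, the log2 change with THZ1 had a Spearman rho of 0.51 with the length of the longest annotated transcript, and across the 33 in SMB56-shSufu 0.64, or 0.58 and 0.62 without DMSO replicates 1 and 2. Pmvk (1194 bases), Ebp (1743) and Nsdhl (2168) have short transcripts, and Scd2 (5455) and Npc1 (5756) long ones. The longest annotated transcript has only 2 exons for Npc1 and Msmo1 and 1 for Fdps and Tm7sf2. For these genes its length may not be that of the main messenger RNA. Fdps, whose counts are uncertain, is also included. Over all genes tested the rho was -0.1 in SMB56 and 0.16 in SMB56-shSufu. With gene span it was 0.19 and 0.1 over the members. These are descriptions across genes that share libraries, and genes are not independent replicates.

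Of the members, 4 start within 300 bases of a protein-coding neighbour on the other strand in GENCODE. Mvk starts 209 bases from Mmab, a cobalamin adenosyltransferase gene, which THZ1 lowered 6.55-fold in SMB56 (edgeR adjusted p = 1.9e-11) and 4.46-fold in SMB56-shSufu (7.4e-06). Dhcr7 starts 296 bases from Nadsyn1, an NAD synthetase gene, which was 13.4-fold and 6.51-fold lower (edgeR adjusted p = 6.8e-11 and 4e-05). Acaca starts 72 bases from Tada2a, a transcriptional adaptor gene, which was 2.31-fold and 2.08-fold lower (edgeR adjusted p = 6.1e-12 and 4.3e-05). Nsdhl starts 146 bases from Cetn2, a centrin gene, which was 1.78-fold higher in SMB56 (edgeR adjusted p = 2.8e-09) and without a call in SMB56-shSufu (0.22), on the TMM scale. With mitochondrial scaling Cetn2 turned to -0.45 in SMB56. Without SMB56-shSufu DMSO replicates 1 and 2, the log2 change there was -1.78 and -2.45 for Mmab, -2.99 and -2.34 for Nadsyn1, -1.0 and -1.11 for Tada2a and 0.49 and 0.075 for Cetn2. In SMB56-shSufu, Nadsyn1 and Tada2a fell while Dhcr7 (0.074 ± 0.30) and Acaca (0.47 ± 0.20) did not pass the test. The sources used here do not give the strand used in counting. Fdft1 shares 18.3% of its exon bases with Ctsb, Hmgcs1 12.1% with an antisense gene and Scap 13.2% with 5830462I19Rik, so reads in those stretches cannot be assigned.

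Lists of other lipid genes were counted the same way. In the SMB56 THZ1 table their calls carry no information. In SMB56-shSufu, where 29.5% of all genes tested were higher and 32.3% lower with THZ1, 7 of 11 SREBP processing genes were higher and 2 lower. The counts were 3 and 4 of 13 LXR, efflux and esterification genes, 5 and 5 of 16 prenylation genes, 7 and 7 of 20 acyl-CoA genes, 11 and 2 of 18 glycerolipid and phospholipid genes and 5 and 12 of 23 fatty acid oxidation genes. Without DMSO replicate 1 the counts of the 6 lists, in that order, were 7 and 2, 3 and 4, 6 and 6, 10 and 5, 11 and 2, and 5 and 12, where 31.7% of all genes were higher and 33.9% lower. Without replicate 2 they were 7 and 2, 3 and 4, 5 and 7, 7 and 9, 9 and 3, and 4 and 11, where 31.2% were higher and 33.6% lower. Mbtps2, a protease that releases SREBP, fell by 1.61 ± 0.073 on the log2 scale in SMB56 (edgeR adjusted p = 2.1e-14) and by 1.48 ± 0.17 in SMB56-shSufu (1.2e-05). Erlin1, which takes part in degrading endoplasmic reticulum proteins, was higher by 1.55 ± 0.060 in SMB56 (edgeR adjusted p = 1.7e-15) and by 1.53 ± 0.15 in SMB56-shSufu (3.6e-06) on the TMM scale, and by 0.28 and 0.18 with mitochondrial scaling. Erlin2 of the same list fell, at -1.395 ± 0.071 in SMB56 (edgeR adjusted p = 1.2e-13) and -1.03 ± 0.16 in SMB56-shSufu (0.00011). Mbtps1 of that list was at -0.28 ± 0.050 in SMB56 (edgeR adjusted p = 1.8e-05) and 0.46 ± 0.15 in SMB56-shSufu (0.015). Without SMB56-shSufu DMSO replicates 1 and 2, Mbtps2 was at -1.5 and -1.47 and Erlin1 at 1.7 and 1.39.

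Thrsp, a lipogenesis gene of the acyl-CoA list, fell from 22.5 and 23.1 CPM to 4.78 and 5.2 with THZ1 in SMB56, or -2.19 ± 0.14 (edgeR adjusted p = 5.1e-12), and from 59.5 and 40.2 to 14.6 and 10.2 in SMB56-shSufu, or -2.0 ± 0.22 (7.9e-06). Cds2, a CDP-diacylglycerol synthase, rose from 136 and 138 CPM to 530 and 544, or 1.97 ± 0.044 (edgeR adjusted p = 5.6e-19), and from 61.8 and 85.3 to 321 and 361, or 2.21 ± 0.18 (8.7e-07). With both genes the groups did not overlap in either line. Without SMB56-shSufu DMSO replicates 1 and 2, Thrsp was at -1.69 and -2.26 and Cds2 at 2.0 and 2.46. Agpat4, of the same glycerolipid and phospholipid list as Cds2, went the other way. It was at -2.81 ± 0.087 in SMB56 (edgeR adjusted p = 5.1e-17) and -1.81 ± 0.17 in SMB56-shSufu (2.7e-06), where 11 genes of that list were higher and 2 lower.

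With GDC-0449, Rxra, a nuclear receptor that pairs with LXR, fell from 111 and 108 CPM to 61.6 and 63.2, or -0.81 ± 0.049 (edgeR adjusted p = 2.4e-14). Icmt, which methylates prenylated proteins, fell from 103 and 104 CPM to 56.1 and 55, or -0.90 ± 0.051 (edgeR adjusted p = 4.8e-15). Abca1, a cholesterol exporter and LXR target, rose from 6.75 and 5.56 CPM to 8.98 and 9.76, or 0.61 ± 0.16 (edgeR adjusted p = 0.0036). These changes were larger than that of any sterol or fatty acid gene. Between the lines under DMSO, 9 of 15 acyl-CoA genes were higher in SMB56-shSufu and 4 lower, where 25.7% of all genes tested were higher and 25.4% lower. Without SMB56-shSufu DMSO replicate 1 they were 9 and 5 (28.3% and 28.4% of all genes), and without replicate 2, 10 and 3 (30.9% and 29.8%). The malic enzyme gene Me1 had 5.53 and 5.92 CPM in SMB56 and 30.1 and 15.6 in SMB56-shSufu, or 1.99 ± 0.28 (edgeR adjusted p = 0.00044), with 1.44 and 2.4 without replicates 1 and 2, and both SMB56-shSufu libraries were above SMB56.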

How the data were processed

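RNA sequencing of 10 libraries in 5 groups was analysed from 3 tables the authors deposited, each with read counts per gene, FPKM values, a log2 fold change and p-values per the file headers. Per the submitters' processing notes the tools were Cufflinks 2.2.1, STAR 2.5.3a and DESeq2 1.20.0, with no role given, and the build named is hg19, although the gene IDs are mouse Ensembl IDs. The deposited log2 fold changes served only for an added scaling, and the authors' p-values only to see how each table was selected: 9999 of 10007 genes of the SMB56 THZ1 table had an adjusted p under 0.05 there, which shows selection on the outcome. The SMB56 DMSO counts are the same in both SMB56 tables.

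The counts were tested with edgeR 4.0.16 (R 4.3.3; TMM scaling, filterByExpr, quasi-likelihood F test, Benjamini-Hochberg adjustment over all genes of a fit, threshold 0.05). Each drug was tested within its own table. The lines, the difference of THZ1 responses and THZ1 against GDC-0449 were tested on the genes shared by 2 tables. Standard errors are the log2 change over the root of F. CPM values use each fit's scaling, so they compare libraries within a fit, and levels between genes are compared in FPKM only. No spike-in was given in the sources used here, so changes are relative to the other genes.

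Alternatives were DESeq2 1.42.0, other scalings, no filter, limma 3.58.1 on log2(FPKM + 1), all 10 libraries together, the replicate number as a block and each library left out. The scaling that puts 0 where the authors' log2 fold change is 0 was chosen after seeing the data, as were the counts of the other lists and the rank correlation with transcript length without each SMB56-shSufu DMSO library. The scripts were tested on simulated data. The members and all gene lists were chosen with earlier results of these data known. Values in every library are given for members called with a log2 change of at least 1 in size, or else the 4 called members that changed most. For the lines and the difference between them they are given for the 8 that changed most. Srebf1, Srebf2, Insig1, Insig2, Scap, Hmgcs1, Sqle, Dhcr7, Fasn, Acaca, Scd1 and Scd2 are named in each comparison, and of other lists at most 3 called genes. Mbtps1 is named in addition, beside Mbtps2.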

Additional observations from a re-analysis of the deposited data

Results flagged for a closer look

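The response to THZ1 differed between the lines in 4 of 29 genes by edgeR's test of the difference itself, where 18.3% of 8204 genes differed. The members thus did not differ more often than all genes, and all genes of this fit stand in the selected SMB56 THZ1 table. Values are given as SMB56-shSufu minus SMB56 on the log2 scale. Srebf1 differed by 0.965, Srebf2 by 0.907, Scd2 by 0.804 and Stard4 by 0.694. Srebf1 fell in both lines and fell less in SMB56-shSufu, and it was called with any single library left out. Srebf2, Scd2 and Stard4 lost their call without any 1 of the SMB56 libraries or of the SMB56-shSufu THZ1 libraries. None of the 4 was called with mitochondrial scaling.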

How the results depend on the processing

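The members called were 29 for THZ1 in SMB56, 15 for GDC-0449, 19 for THZ1 in SMB56-shSufu, 15 between the lines, 4 for the difference of responses and 28 for THZ1 against GDC-0449. Of all genes tested, 99.5%, 36.3%, 61.9%, 51.1%, 18.3% and 90.3% were called in that order. For the settings below the share of all genes is not given beside the counts, so a shift of the members cannot be told from one of all genes. With all 10 libraries together the members called were 16 for THZ1 in SMB56, 1 for GDC-0449 and 17 for THZ1 against GDC-0449. With limma on FPKM they were 6 for GDC-0449, 11 for THZ1 in SMB56-shSufu, 9 between the lines and 1 for the difference. Mitochondrial scaling in edgeR gave 23 for GDC-0449 and 0 for the difference, where 9 had an unadjusted p under 0.05 and the DESeq2 Wald test with its own size factors called 5. The DESeq2 Wald test gave 12 for THZ1 in SMB56-shSufu, DESeq2 size factors gave 1 for the difference, and the 4 DMSO libraries alone gave 5 between the lines. With each library left out in turn, the count ranged from 15 to 30 for THZ1 in SMB56-shSufu, from 4 to 31 between the lines and from 1 to 25 for the difference. Every other count of members called stayed within 1.5 times its main value. The replicate numbers are not said to pair the libraries, and libraries with the same number had correlations of -0.103 to 0.147. With the replicate block the counts were 29, 16, 24, 16, 5 and 28 in the order above. The cause of these shifts was not tested. The sign changes listed next are limited to genes called in the main fit or in the setting that turned them. Other values, some of them given above, also turned without a call in either. With DESeq2 size factors the log2 values that changed sign were, for THZ1 in SMB56 Srebf2 0.20, Lbr 0.053, Fasn 0.003, Acaca 0.18, Elovl6 0.006. With library size alone the log2 values that changed sign were, for THZ1 in SMB56 Hmgcs1 -0.059, Acly -0.15, and for THZ1 against GDC-0449 Hmgcs1 -0.069, Sqle -0.52, Srebf2 -0.43, Insig2 -0.10, Fasn -0.44, Acaca -0.14. With mitochondrial scaling the log2 values that changed sign were, for THZ1 in SMB56 Hmgcs1 -0.96, Tm7sf2 -0.75, Hsd17b7 -0.66, Insig2 -0.81, Scap -0.30, Acly -1.05, Scd2 -0.73, Npc1 -0.17, and for THZ1 in SMB56-shSufu Hmgcs1 -0.47, Idi1 -1.02, Fdps -0.26, Sqle -1.27, Lss -0.51, Cyp51 -1.34, Tm7sf2 -0.54, Sc5d -0.43, Dhcr7 -1.35, Srebf2 -0.46, Insig2 -0.87, Lbr -1.13, Fasn -0.62, Acaca -0.91, Acly -0.87, Scd1 -0.21, Elovl6 -1.06, Fads2 -1.21, Stard4 -1.0, and for the lines under DMSO Fdft1 -0.14, Lss -0.14, Cyp51 -0.17, Hsd17b7 -0.99, Ebp -0.30, Sc5d -0.15, Srebf2 -1.0, Scap -1.0, Lbr -0.94, Acaca -1.01, Scd2 -0.19, Elovl6 -0.78, Fads1 -0.59, Fads2 -0.37, Stard4 -1.08, and for THZ1 against GDC-0449 Hmgcs1 -0.84, Sqle -1.29, Srebf2 -1.21, Insig2 -0.88, Fasn -1.21, Acaca -0.92, Scd2 -0.46. With the DESeq2 Wald test the log2 values that changed sign were, for THZ1 in SMB56 Srebf2 0.20, Lbr 0.053, Fasn 0.003, Acaca 0.18, Elovl6 0.006. With limma on log2(FPKM + 1) the log2 values that changed sign were, for THZ1 in SMB56 Hmgcs1 -0.31, Fdps -0.83, Tm7sf2 -0.054, Hsd17b7 -0.012, Insig2 -0.003, Acly -0.41, Scd2 -0.015, and for GDC-0449 Fdps -0.28, and for THZ1 in SMB56-shSufu Fdps -0.15, Insig2 -0.13, and for the lines under DMSO Acaca -0.64, and for THZ1 against GDC-0449 Hmgcs1 -0.29, Sqle -0.74, Srebf2 -0.63, Insig2 -0.16, Fasn -0.58. With all 10 libraries fitted together the log2 values that changed sign were, for THZ1 in SMB56 Srebf2 0.15, Lbr 0.001, Acaca 0.13. With each library left out in turn, the values whose sign turned ranged, for THZ1 in SMB56-shSufu Acat2 -0.74 to 0.71, Fdft1 -0.62 to 0.48, Msmo1 -1.31 to 0.12, Insig1 -0.67 to 0.46, Fads1 -0.34 to 0.44, Sqle -0.36 to 0.95, Cyp51 -0.46 to 1.0, Dhcr7 -0.46 to 0.93, and for the lines under DMSO Acat2 -0.48 to 0.97, Hmgcs1 -0.28 to 1.37, Hsd17b7 -0.53 to 0.63, Dhcr7 -0.36 to 1.02, Acly -0.67 to 0.34, and for the difference between lines Fdps -0.92 to 0.77. With 2 libraries a group, each p rests on few degrees of freedom.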
